A study of Homo sapiens with 156 samples.

Results

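Low doses of decitabine (DAC), 16 and 80 nM for 4 days, were compared with the solvent DMSO in THP1, an established human line of acute monocytic leukemia that carries a rearranged KMT2A gene. The 6 libraries were taken by their labels, 2 of DMSO (0 nM), 2 of 16 nM DAC and 2 of 80 nM DAC, all collected at day 4, out of 156 libraries in the series and 52 of THP1. The other libraries come from the same line at other doses, days and compounds and from the lines MV411 and NOMO1. A pair of libraries of 3.2 nM DAC at day 4 served as a reference level, and libraries of GSK032 (GSK3685032), a second DNMT1 inhibitor, at 16 and 80 nM and day 4 as a comparator. Cells of every group were plated a day before compound or solvent was added, and total RNA was sequenced. THP1 is 1 cell line, and the labels do not state that the 2 libraries of a group are separate cultures. The p-values below thus reflect the spread between libraries, which may be technical. In bulk RNA, fewer cells expressing a gene and less RNA per cell cannot be told apart.

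DNMT1 copies the methyl marks of CG dinucleotides onto the new strand after DNA replication. DAC is a cytidine analog that is phosphorylated by DCK, built into replicating DNA, and there traps DNMT1, so that methylation is lost over cell divisions. Genes of the male germ line are textbook examples of promoters kept silent by methylation, and interferon-stimulated genes are known to respond to DNMT inhibitors in tumor cells. No methylation was measured here.

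The 3 members of the interferon list that were called higher at 16 nM, described below, each hold the core of the interferon-stimulated response element, GAAA followed by any 2 bases and a second GAAA, in the 250 bases before the RefSeq start site, on one strand or the other. Their windows are shown because these genes moved at the lower dose, with the motif in capitals (GRCh38.p14, each read along the gene's strand). IFI27 at chr14:94110486-94110735 (+) held 2 matches, IFI6 at chr1:27672193-27672442 (−) held 3, and LGALS3BP at chr17:78979924-78980173 (−) held 1.
IFI27: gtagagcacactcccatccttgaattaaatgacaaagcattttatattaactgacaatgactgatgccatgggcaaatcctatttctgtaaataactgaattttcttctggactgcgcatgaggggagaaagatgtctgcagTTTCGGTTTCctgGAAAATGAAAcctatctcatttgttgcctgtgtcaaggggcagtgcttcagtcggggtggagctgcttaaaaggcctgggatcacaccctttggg
IFI6: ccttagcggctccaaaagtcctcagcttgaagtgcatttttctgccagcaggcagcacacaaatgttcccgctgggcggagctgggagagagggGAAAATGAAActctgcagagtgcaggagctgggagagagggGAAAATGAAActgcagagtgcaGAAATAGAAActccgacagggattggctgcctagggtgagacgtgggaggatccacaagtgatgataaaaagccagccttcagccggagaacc
LGALS3BP: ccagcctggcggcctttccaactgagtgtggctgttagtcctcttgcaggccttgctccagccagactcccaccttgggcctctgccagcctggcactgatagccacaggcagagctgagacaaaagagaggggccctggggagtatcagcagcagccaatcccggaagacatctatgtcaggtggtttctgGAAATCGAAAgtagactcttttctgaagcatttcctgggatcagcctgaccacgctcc

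The motif was searched on both strands in the 300 bases around the start (250 before, 50 after). It was found in 23 of the 32 interferon-list promoters with a RefSeq entry (71.9%) and in 3.02% of the 11231 tested genes with one. A match is a description of the letters and not of binding. The promoters of a pair of germline genes on chromosome X are shown for their CG dinucleotides, in capitals, because MAGEA4 rose at both doses and PNMA5 at 80 nM only by the call rule given below. MAGEA4 at chrX:151912224-151912473 (+) held 6 CG and PNMA5 at chrX:152994117-152994366 (−) held 16, while the window of another germline gene, MAEL, held 51.
MAGEA4: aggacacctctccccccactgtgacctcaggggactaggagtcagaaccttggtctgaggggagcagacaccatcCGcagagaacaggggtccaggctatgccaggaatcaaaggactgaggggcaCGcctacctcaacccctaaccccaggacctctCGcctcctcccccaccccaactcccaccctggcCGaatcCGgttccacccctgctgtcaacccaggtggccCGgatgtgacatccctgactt
PNMA5: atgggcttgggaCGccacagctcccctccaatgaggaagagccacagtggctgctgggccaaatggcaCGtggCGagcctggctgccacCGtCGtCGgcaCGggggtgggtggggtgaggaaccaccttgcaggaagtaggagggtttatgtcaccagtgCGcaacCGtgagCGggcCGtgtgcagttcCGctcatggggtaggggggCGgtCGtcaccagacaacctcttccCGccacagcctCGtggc

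Over promoters of 300 bases, the median number of CG was 10 for the genes called higher at 16 nM (13 of 20 had a promoter). It was 11 for those called higher at 80 nM (225 of 404), against 25 for all tested genes with a promoter. Among tested genes whose mean FPKM in DMSO was under 1, the median was 16 (1377 promoters), and it was 11.5 for those of them called higher at 80 nM (122 promoters). Genes with a mean DMSO FPKM under 1 made up 40.0% and 59.4% of those called higher at 16 and 80 nM and 25.5% of all tested genes, and the part of that in the CG counts was not tested.

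The deposited values are FPKM for 59939 genes. Judged from low values of single-transcript genes, a library's scale corresponded to 48.9 to 87.0 M fragments over the 12 libraries used, and the files hold no counts. Replicates correlated at 0.962 to 0.969 across genes. A gene was tested where at least 2 of the 52 THP1 libraries reached an FPKM of 1, which 23226 genes did. It was called where the adjusted p was under 0.05 and the change at least 1 on the log2(FPKM + 0.5) scale, a scale that understates changes of low genes. On the first principal component (24.6% of the variance over the day 4 DMSO and DAC libraries of up to 80 nM), the DMSO and 3.2 nM libraries lay between -38.0 and -12.7, those of 16 nM at 2.9 and 15.7, and those of 80 nM at 53.3 and 41.7. Of the monocyte markers all but FCN1 reached 1 FPKM, and the defining T-cell gene CD3E was listed at 0 throughout.

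At 16 nM DAC, 20 genes were called higher and 12 lower than DMSO (0.0861% and 0.0517% of the genes tested). At 80 nM, 404 were called higher and 78 lower (1.74% and 0.336%). At 3.2 nM, 6 were called higher and 1 lower (0.0258% and 0.00431%). These comparisons share the DMSO libraries. Genes with no annotated transcript of 200 bases, such as microRNA precursors and small nuclear RNAs, are poorly measured by this kind of library and are treated as uncertain. Refitted without them, the counts were 18 higher and 5 lower at 16 nM, 371 and 43 at 80 nM, and 0 and 1 at 3.2 nM. The count at 16 nM depended on single libraries. It was 84 in place of 32 without DMSO library 1 (34 higher and 50 lower), 55 without 16 nM library 1 (44 and 11) and 40 without 16 nM library 2 (37 and 3). At 80 nM the 78 lower calls became 137 without DMSO library 1. At 3.2 nM the 7 calls became 22 without DMSO library 1, 12 without DMSO library 2 and 20 without 3.2 nM library 2.

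**Figure D1:**
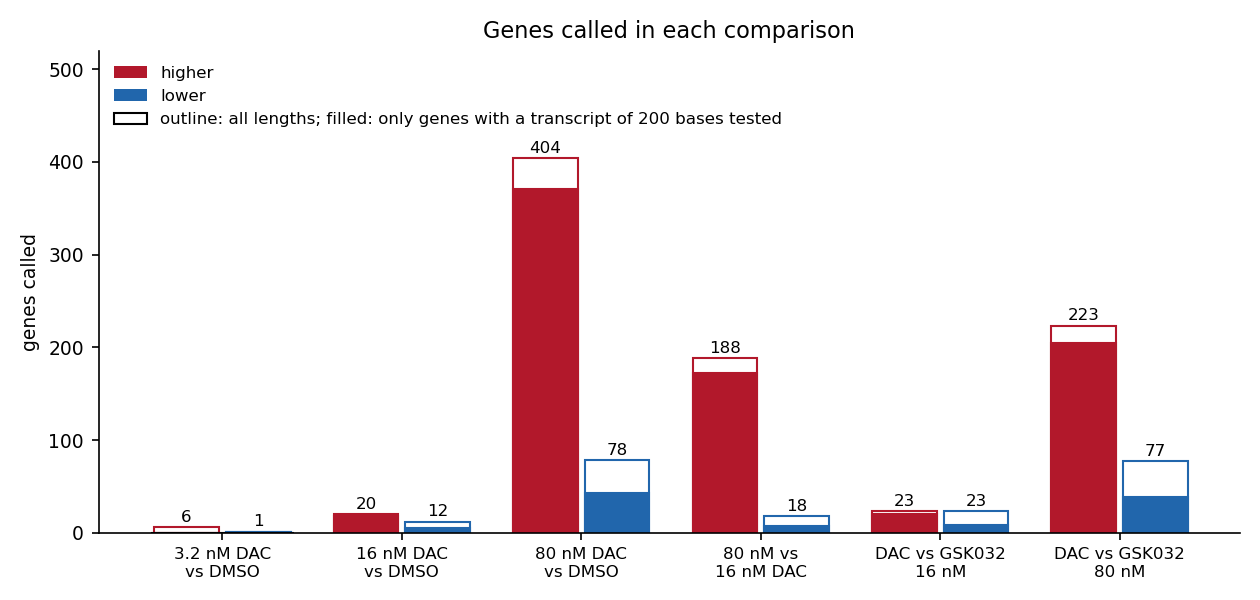
Number of genes called higher (red) or lower (blue) on the y axis in each comparison on the x axis, with all tested genes as outlines and a refit on genes with an annotated transcript of at least 200 bases as filled bars. At 80 nM DAC, 404 genes were called higher and 78 lower, against 20 and 12 at 16 nM.

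Of the 404 genes higher at 80 nM, 291 were protein coding, 57 long noncoding or antisense, 21 pseudogenes and 22 shorter than 200 bases. The X chromosome held 29 of them (7.18%), against 3.13% of the tested genes. A mean DMSO level under 1 FPKM was seen in 240 of them (59.4%) and in 25.5% of the tested genes, a difference partly fixed by the filter, since a silent gene was tested only where some libraries reached 1 FPKM. Of the 78 lower genes, 22 were protein coding and 30 were shorter than 200 bases. The calls were also set beside the 8 DMSO libraries of THP1 over days 1, 2, 4 and 6. These include the 2 day 4 libraries that made the calls, so the contrast with all tested genes was partly fixed in advance. Both treated libraries already lay above those 2 in 20 of 20 genes called higher at 16 nM and 403 of 404 at 80 nM. They lay below those 2 in 12 of 12 and 74 of 78 genes called lower. Both treated libraries lay above all 8 in 18 of the 20 genes called higher at 16 nM (3.29% of tested genes did so) and in 380 of the 404 at 80 nM (10.1%). They lay below all 8 in 3 of the 12 called lower at 16 nM (5.64% of tested genes) and in 34 of the 78 at 80 nM (13.6%).

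**Figure D2:**
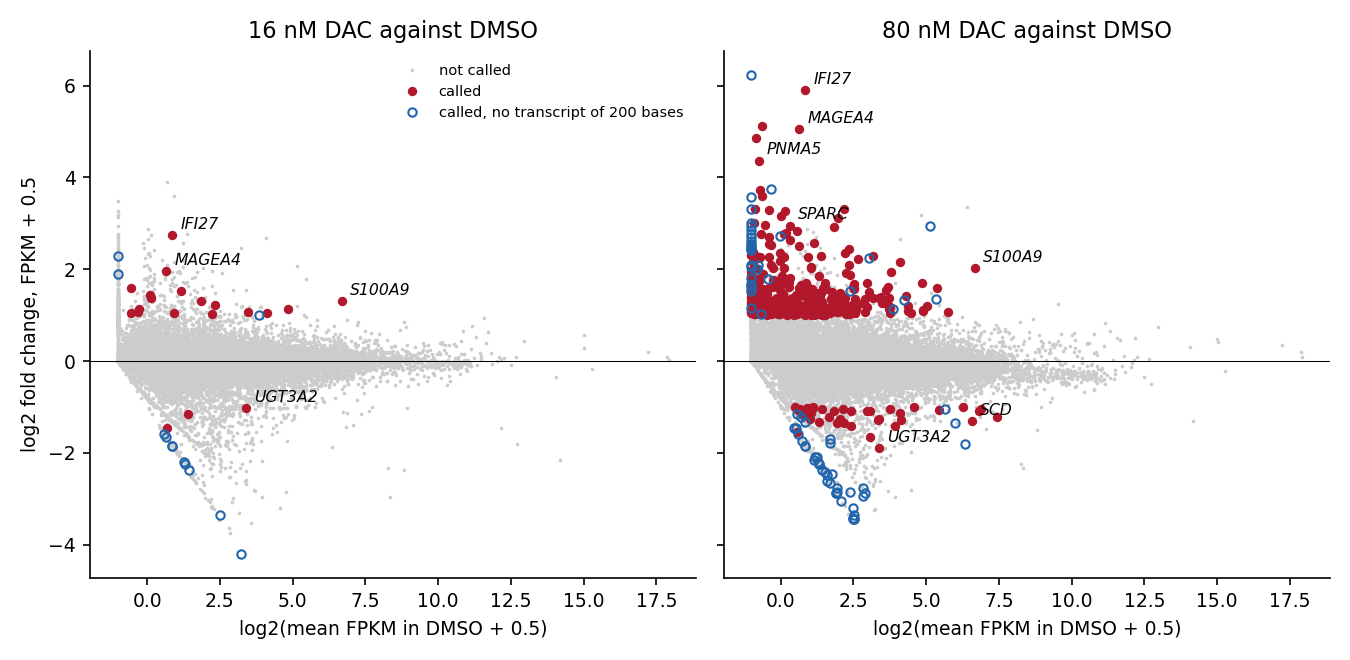
Log2 change against DMSO (y axis) by log2(FPKM + 0.5) in DMSO at day 4 (x axis) for the tested genes, in 1 panel each for 16 and 80 nM DAC, with called genes in red and called genes without a transcript of 200 bases as hollow blue points. At 16 nM 20 genes were called higher and 12 lower, and at 80 nM 404 and 78, of which 240 of the 404 had a mean FPKM under 1 in DMSO.

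The reference dose of 3.2 nM gave no named protein-coding gene that was higher. Its 6 higher calls were all short or without a symbol. TIMP3, an inhibitor of matrix metalloproteinases, was the 1 gene called lower, at 13.8 and 21.4 FPKM in DMSO and 7.75 and 8.15 at 3.2 nM, a log2 change of -1.07. The DMSO libraries of TIMP3 differed from each other by more than those of 3.2 nM did. Its call ended without DMSO library 2 (-0.76, adjusted p = 0.162) and without 3.2 nM library 1 (adjusted p = 0.0549).

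At 16 nM, 13 of the 20 genes called higher were protein coding, among them the interferon-stimulated IFI27, LGALS3BP and IFI6, the germline antigen MAGEA4, and the calprotectin subunit S100A9. Among these protein-coding genes the largest change was that of IFI27 (chromosome 14, 94104836 to 94116698, +), a small mitochondrial protein that is among the most inducible interferon targets. The RefSeq start used for its promoter lies inside this GENCODE gene. IFI27 stood at 1.39 and 1.23 FPKM in DMSO, 1.8 and 1.95 at 3.2 nM, 12.6 and 10.6 at 16 nM, and 108 and 108 at 80 nM. Its groups did not overlap, and each step was larger than the gap within a pair. The log2 change was 2.74 ± 0.35 at 16 nM (SE, n = 2 per group, adjusted p = 2.58e-05, limma) and 5.91 ± 0.35 at 80 nM (adjusted p = 5.33e-13). From 16 nM to the 5-fold higher dose it rose by a further 3.17 (95% interval 2.44 to 3.89, adjusted p = 4.09e-07).

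LGALS3BP, a secreted glycoprotein that binds galectins, read 4.76 and 4.36 FPKM in DMSO, 5.36 and 4.81 at 3.2 nM, 11.8 and 10.9 at 16 nM, and 25.0 and 29.1 at 80 nM. The 3.2 nM values lay just above those of DMSO, and both higher doses were well above them. The log2 change was 1.23 ± 0.11 at 16 nM (adjusted p = 6.89e-08) and 2.44 ± 0.11 at 80 nM (adjusted p = 1.59e-15). IFI6, which limits cell death and viral replication, was at 16.9 and 16.8 FPKM in DMSO, 33.1 and 37.5 at 16 nM, and 76.6 and 77.5 at 80 nM. Its 3.2 nM libraries, at 17.5 and 16.9, stood at the DMSO level. IFI6 changed by 1.04 ± 0.08 at 16 nM, which fell under the call size without 16 nM library 2 (0.95), and by 2.16 ± 0.08 at 80 nM.

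**Figure D3:**
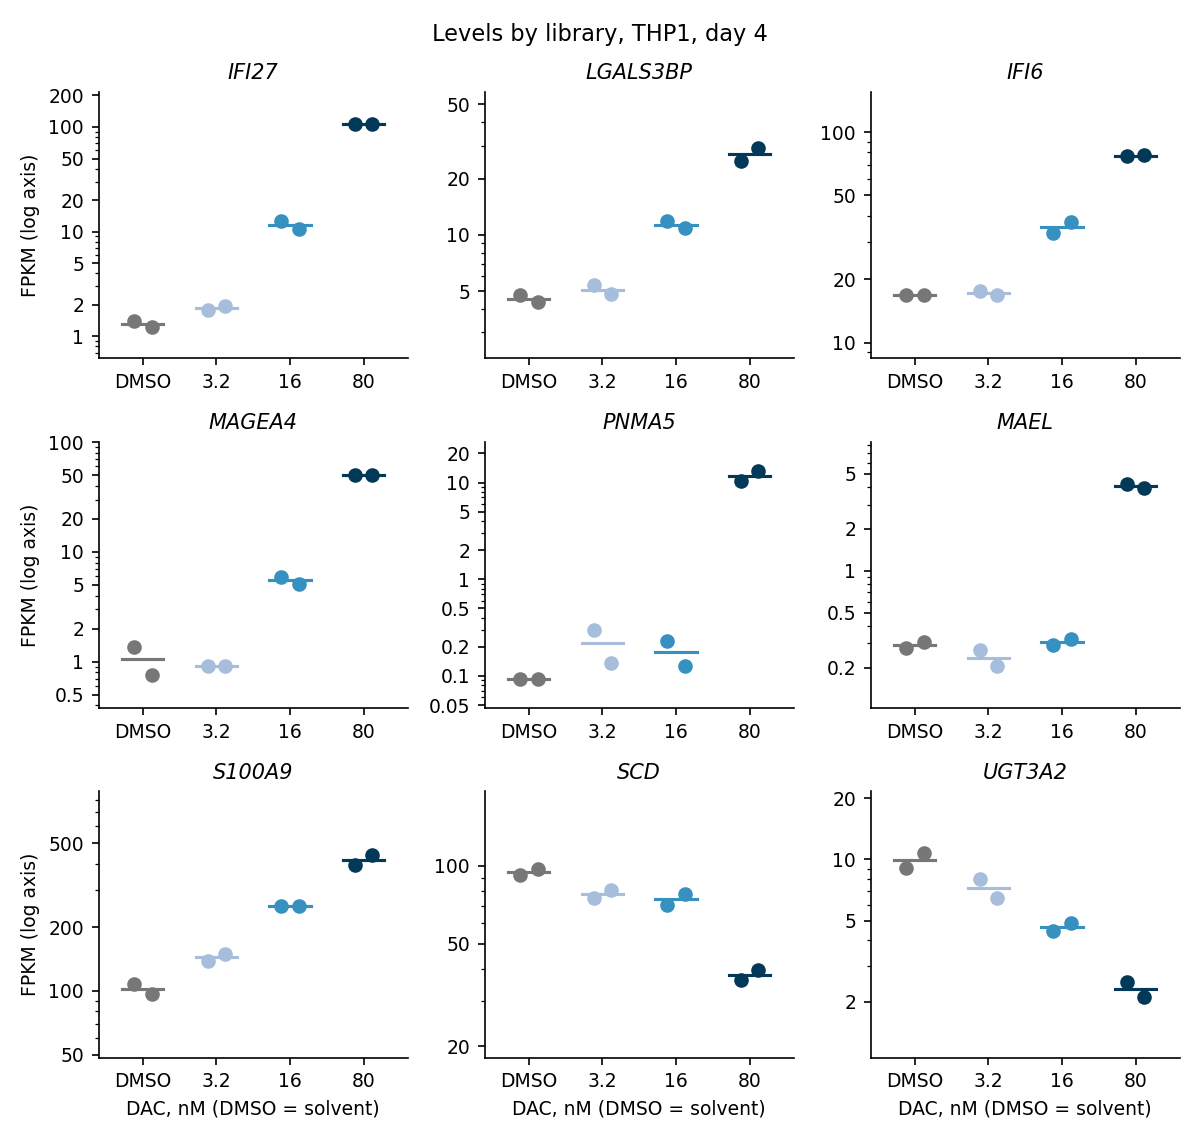
FPKM (y axis, log scale) of 9 genes in DMSO and DAC at 3.2, 16 and 80 nM (x axis), day 4, in THP1, with each point a library (n = 2 per group) and a bar at the mean. IFI27, LGALS3BP, IFI6, MAGEA4 and S100A9 were called higher at both doses, PNMA5 and MAEL were called higher at 80 nM only, and SCD and UGT3A2 were lower.

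The interferon effector list had 40 tested members. At 16 nM 3 were called higher and 15 passed the adjusted p of 0.05 at any size (1.34% of tested genes did so upward), with none lower, and their median log2 change was 0.53 against 0.00 over all tested genes. At 80 nM 23 were called higher and 37 passed at any size (8.45% upward over all tested genes), with none lower and a median of 1.1 against -0.005. The count of 15 at 16 nM was 9 without DMSO library 2 or without 16 nM library 2, and 3 with libraries scaled to equal sums or with a fit to 8 libraries alone, while the median stayed between 0.43 and 0.55. In 38 of the 40 members (95.0%) the mean level rose from DMSO to 16 nM to 80 nM, an order that 21.9% of all tested genes had.

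Among antiviral effectors, IFIT1, which binds viral RNA caps, was at 1.62 and 1.26 FPKM in DMSO, 3.12 and 2.82 at 16 nM, and 10.5 and 7.4 at 80 nM. Its change was 0.84 at 16 nM (adjusted p = 0.043) and 2.27 at 80 nM (adjusted p = 1.92e-08). MX1, a GTPase that blocks viral nucleocapsids, read 6.39 and 5.17 in DMSO, 9.65 and 9.65 at 16 nM, and 29.7 and 27.9 at 80 nM. The groups of both genes were fully apart. ISG15, a ubiquitin-like modifier, was at 13.1 and 13.6 in DMSO, 19.4 and 20.0 at 16 nM, and 51.8 and 52.8 at 80 nM. OAS1, which makes the second messenger that activates RNase L, was more scattered, at 5.78 and 3.43 in DMSO, 9.79 and 8.30 at 16 nM, and 24.7 and 17.0 at 80 nM. Its change at 16 nM, 0.94, did not pass (adjusted p = 0.097). IFI44L was at 0.861 and 0.662 in DMSO and at 1.49 and 1.28 at 16 nM (0.58, adjusted p = 0.166), and reached 8.51 and 6.20 at 80 nM (2.63, adjusted p = 2.98e-10). The list members ISG20, PLSCR1 and IFITM2 passed at neither dose, with log2 changes at 80 nM of 0.45, 0.22 and 0.19.

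Upstream of these effectors, 19 of 28 listed sensors, interferons and signal transducers were tested. None was called at 16 nM, where 2 passed at any size, IRF7 (0.57) and STAT2 (0.47), and 1.34% of tested genes passed upward. At 80 nM 2 were called, IRF7, the transcription factor that amplifies interferon production, and IFIH1, a sensor of long double-stranded RNA. At any size 9 passed, all higher (median 0.24). Of all tested genes 1.74% were called higher and 8.45% were higher at any size. IRF7 stood at 9.09 and 8.04 FPKM in DMSO, 13.3 and 12.5 at 16 nM, and 23.3 and 22.3 at 80 nM (1.36). IFIH1 rose by 1.05 at 80 nM, and by 0.88 without DMSO library 2 and 0.98 without 80 nM library 1, both under the call size. The interferon genes themselves were low. IFNB1 reached at most 0.133 FPKM in the 8 DMSO and DAC libraries, IFNL1 at most 0.0522, and IFNL2 and IFNL3 were listed at 0.

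Of 25 tested members of the antigen presentation list none was called at 16 nM and 1 was at 80 nM, HLA-F, a nonclassical class I molecule (1.74% of tested genes were called higher). It was at 5.42 and 4.99 FPKM in DMSO, 10.5 and 10.8 at 16 nM, and 15.3 and 18.4 at 80 nM, with changes of 0.97 and 1.60. At any size 7 members were higher at 16 nM and 14 at 80 nM (1.34% and 8.45% of tested genes were), with none lower, and medians of 0.29 and 0.33. These counts depended on the processing, and that at 16 nM fell as low as 0. The medians stayed between 0.24 and 0.32 at 16 nM and between 0.27 and 0.42 at 80 nM. The members higher as reported included the peptide transporter TAP1 (0.55 and 0.85) and the class I light chain B2M (0.44 and 0.58). Of class II, the transactivator CIITA had differences of 0.12 and 0.27 and the invariant chain CD74 of 0.12 and -0.10, none of which passed.

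**Figure D4:**
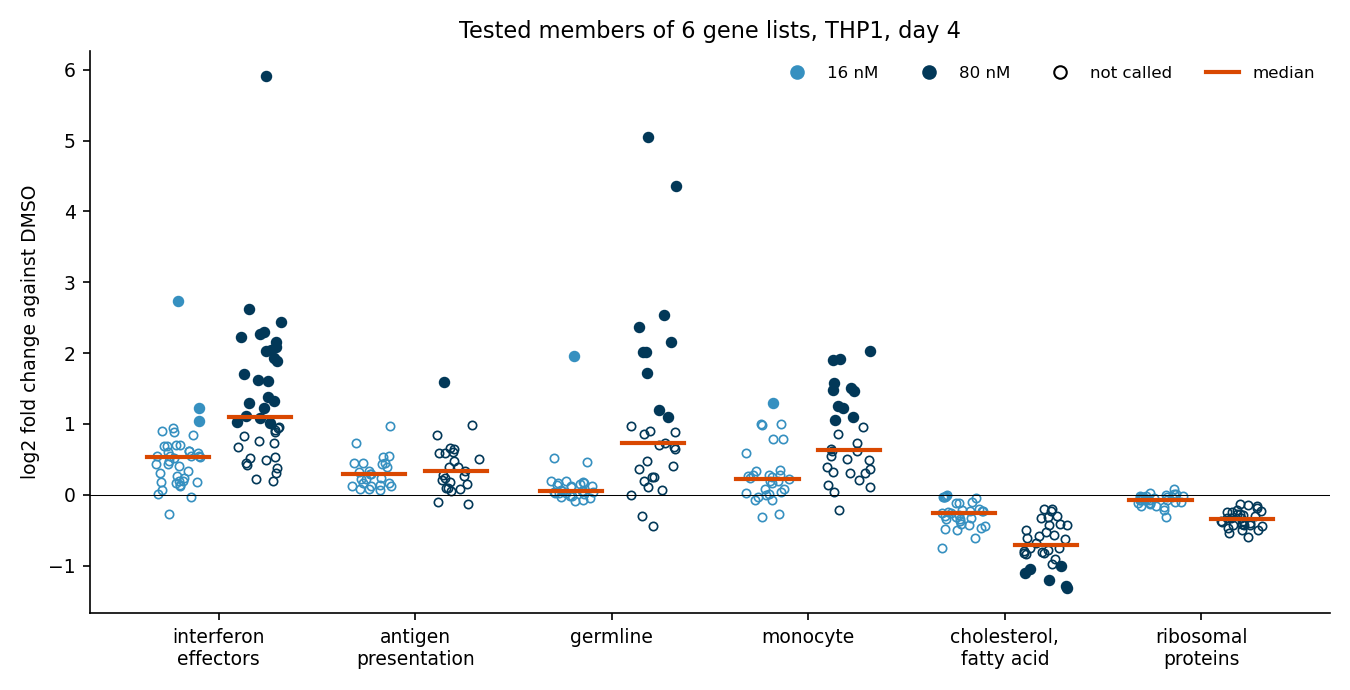
Log2 change against DMSO (y axis) of the tested members of 6 gene lists at 16 nM (light blue) and 80 nM DAC (dark blue), by list on the x axis, with filled points for called members and an orange line at the median. The interferon median was 0.53 at 16 nM and 1.1 at 80 nM, the germline median 0.06 and 0.73, and the cholesterol and fatty acid median -0.26 and -0.71.

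More germline genes were called at 80 nM than at 16 nM. Of 47 listed members 29 were tested. At 16 nM 1 was called, MAGEA4, with a list median of 0.06 (0.0861% of tested genes were called higher, median 0.00). At 80 nM 10 were called higher and none lower, with a median of 0.73 (1.74% of tested genes were called higher, median -0.005). Of the 18 untested members none exceeded 1.06 FPKM (TEX14) in any of the 8 libraries, and CTAG1B, PAGE1 and CT83 were listed at 0. Since silent members passed the filter only where some treated library was high, the counts are not shares of the family.

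MAGEA4 (chromosome X, 151912509 to 151925170, +), a cancer-testis antigen that binds a ubiquitin ligase, stood at 1.37 and 0.756 FPKM in DMSO, 0.923 and 0.912 at 3.2 nM, 5.85 and 5.14 at 16 nM, and 50.3 and 50.4 at 80 nM. Every 16 nM value was above every DMSO and 3.2 nM value, and the 80 nM values were higher again. The log2 change was 1.96 ± 0.23 at 16 nM (adjusted p = 5.62e-06, and 0.0874 with a fit to 8 libraries alone) and 5.05 ± 0.23 at 80 nM (adjusted p = 1.56e-15). PNMA5 (chromosome X, 152988824 to 152994127, −), of the paraneoplastic Ma family, stood at 0.0931 and 0.0934 in DMSO, 0.302 and 0.135 at 3.2 nM, 0.229 and 0.126 at 16 nM, and 10.4 and 13.2 at 80 nM. Its 3.2 and 16 nM values overlapped, and only the 80 nM libraries exceeded 1 FPKM. The change was 0.19 at 16 nM (95% interval -0.40 to 0.78, adjusted p = 0.869) and 4.37 ± 0.29 at 80 nM (adjusted p = 4.68e-12).

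MAEL (chromosome 1, 166975582 to 167022214, +), which helps silence transposons in germ cells, was at 0.279 and 0.306 FPKM in DMSO, 0.292 and 0.322 at 16 nM, and 4.25 and 3.92 at 80 nM. The 16 nM libraries overlapped DMSO (change 0.03, 95% interval -0.42 to 0.47), and those of 80 nM were far above (2.53 ± 0.22, adjusted p = 1.08e-09). The same contrast of values was seen in PAGE5 (0.11 and 2.37), RHOXF2 (0.04 and 2.15), HORMAD1, which acts in meiotic chromosome pairing (0.12 and 2.02), and CT45A1 (0.16 and 2.01), where none passed at 16 nM and all did at 80 nM. CT45A3 was at 0.0827 and 0 in DMSO, 0.179 and 0.0412 at 16 nM, and 4.71 and 5.07 at 80 nM. MAGEA4, PAGE5, RHOXF2 and the CT45A genes have close copies, between which reads may have been split. PRAME passed at both doses (0.52 and 1.19). GTSF1 was the 1 germline member that passed downward at 80 nM (0.02 and -0.30), and DAZL (0.12 and 0.48) passed at neither dose.

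Outside the germline list, several genes, most of them under 1 FPKM in DMSO, were also called at 80 nM and not at 16 nM. The linker histones HIST1H1A and HIST1H1T, which have relatives in the same gene family and are treated as uncertain, were at 0.0757 and 0.0287 and at 5.19 and 2.91 FPKM in DMSO. HIST1H1A was at 0.474 and 0.284 at 16 nM and 17.8 and 13.6 at 80 nM (0.66 and 4.86), and HIST1H1T at 7.64 and 5.53 and then 48.7 and 38.7 (0.67 and 3.32). Neither gene passed at 16 nM. The zinc finger gene ZNF595 was at 0.105 and 0.131 in DMSO, 0.476 and 0.276 at 16 nM, and 8.04 and 7.33 at 80 nM (0.49 and 3.73). SPARC, a collagen-binding matrix protein, was at 0.675 and 0.833 in DMSO, 1.43 and 1.32 at 16 nM (0.58, adjusted p = 0.148), and 10.0 and 8.34 at 80 nM (2.95, adjusted p = 1.28e-11). Of retrovirus-derived genes 9 of 16 were tested and 1 was called at 80 nM, ERVH48-1, at 0.0131 and 0.00982 in DMSO and 0.682 and 0.696 at 80 nM (1.22). Of imprinted genes 13 of 22 were tested, and 2 were called at 80 nM, the cell-cycle inhibitor CDKN1C, at 1.84 and 1.88 in DMSO and 5.13 and 4.37 at 80 nM (1.15), and DIRAS3, listed at 0 in both DMSO libraries and at 0.954 and 0.839 at 80 nM. Over all tested genes 1.74% were called higher at 80 nM.

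Of monocyte genes, 30 of 34 listed were tested, and 1 was called higher at 16 nM and 11 at 80 nM (0.0861% and 1.74% of tested genes were). At any size 6 and 22 were higher (1.34% and 8.45%) and none lower, with medians of 0.23 and 0.63. S100A9 (chromosome 1, 153357854 to 153361027, +), which pairs with S100A8 in calprotectin, stood at 108 and 96.6 FPKM in DMSO, 138 and 150 at 3.2 nM, 251 and 253 at 16 nM, and 396 and 439 at 80 nM. The 4 groups did not overlap. The change was 1.3 ± 0.13 at 16 nM (adjusted p = 6.25e-07), which was 0.81 against 3.2 nM DAC in place of DMSO, and 2.03 ± 0.13 at 80 nM (adjusted p = 4.68e-12). S100A8 was at 41.1 and 40.9 in DMSO, 53.2 and 53.8 at 3.2 nM, 78.4 and 86.2 at 16 nM, and 120 and 128 at 80 nM (0.99 and 1.58).

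ITGAM, the integrin chain CD11b, was at 8.43 and 7.11 FPKM in DMSO, 14.7 and 17.0 at 16 nM, and 22.8 and 22.9 at 80 nM, and these groups were apart (0.99 and 1.5). The scavenger receptor STAB1 (chromosome 3, 52495338 to 52524495, +) was at 0.147 and 0.180 in DMSO, 0.221 and 0.110 at 16 nM, and 1.96 and 2.01 at 80 nM. Its 16 nM values straddled those of DMSO (0.00, 95% interval -0.48 to 0.48), and its change at 80 nM was 1.90 ± 0.24 (adjusted p = 8.64e-07). GPNMB, a lysosomal membrane protein of macrophages, was at 3.76 and 4.79 in DMSO, 6.15 and 7.17 at 16 nM, and 17.5 and 17.2 at 80 nM (0.59, adjusted p = 0.124, and 1.91). The co-receptor for lipopolysaccharide CD14 was at 2.03 and 2.22 in DMSO, 2.28 and 2.99 at 16 nM, and 4.4 and 5.88 at 80 nM (0.25 and 1.09), a call that ended without 80 nM library 2 (0.90). Lysozyme, LYZ, had a higher mean at 16 nM, with 228 and 286, than at 80 nM, with 209 and 245, against 142 and 154 in DMSO, and the groups of 16 and 80 nM overlapped. CSF1R (0.02 and 0.32), CD68 (0.08 and 0.21) and CD163 (-0.31 and -0.22) passed at neither dose.

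The summed level of the monocyte markers was 397 to 404 FPKM in DMSO, 445 to 501 at 3.2 nM, 669 to 760 at 16 nM and 864 to 964 at 80 nM. S100A9, S100A8 and LYZ made up most of this sum. S100A9 alone went from 108 and 96.6 in DMSO to 396 and 439 at 80 nM, while CD68 and CSF1R passed at neither dose. The sum of granulocyte precursor markers was 3720 to 3760 in DMSO, 3050 to 3370 at 3.2 nM, 2850 to 3510 at 16 nM and 2420 to 3190 at 80 nM. Of 15 tested granule genes 2 were called higher at 80 nM (1.74% of tested genes were), CAMP (1.66) and the transcription factor CEBPE. Neutrophil elastase, ELANE, was at 800 and 786 in DMSO, 635 and 798 at 16 nM, and 522 and 644 at 80 nM (-0.45, adjusted p = 0.0048). PRTN3 went from 1370 and 1380 in DMSO to 772 and 956 at 80 nM. The other precursor markers, MPO and AZU1, overlapped DMSO at 80 nM, AZU1 with 1110 and 1580 against 1580 and 1550. T-cell markers summed to at most 0.592 in each library. Fibroblast markers went from 1.58 to 1.75 in DMSO to 2.01 to 2.54 at 80 nM, and epithelial markers from 1.89 to 2.73 to 4.79 to 5.81. At 80 nM COL1A1, PDGFRB, KRT8 and KRT18 lay above both DMSO libraries. COL1A2, EPCAM and CDH1 overlapped DMSO, and DCN was lower (0.442 and 0.719, then 0.165 and 0.267). B-cell markers went from 2.97 to 3.01 to 3.36 to 3.72, and erythroid and megakaryocyte markers from 0.92 to 1.21 to 1.35 to 1.48. The part of these levels in the results was not tested.

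VSIG4, a complement receptor of macrophages, was the gene with the smallest adjusted p at 16 nM beside IFI6 and TPM2, at 0.516 and 0.658 FPKM in DMSO, 0.687 and 0.694 at 3.2 nM, 2.37 and 2.25 at 16 nM, and 4.76 and 4.71 at 80 nM. Its change was 1.37 ± 0.11 at 16 nM (adjusted p = 1.14e-08) and 2.27 at 80 nM. EVA1B was at 3.19 and 3.00 in DMSO, 8.45 and 8.26 at 16 nM, and 27.1 and 26.5 at 80 nM (1.3 and 2.93). TPM2, a tropomyosin, was at 31.9 and 24.8 in DMSO, 36.4 and 38.2 at 3.2 nM, 64.0 and 60.5 at 16 nM, and 92.3 and 92.3 at 80 nM (1.13 and 1.70). TPM2 changed by 0.95 at 16 nM without DMSO library 2. TMEM176B was at 11.2 and 10.0 in DMSO, 22.7 and 22.9 at 16 nM, and 25.7 and 26.6 at 80 nM. Its 16 nM change of 1.07 became 0.99 without DMSO library 2, and the step to 80 nM of 0.19 did not pass (adjusted p = 0.321). The focal-adhesion protein TNS2 (1.52 and 2.57), the laminin chain LAMB2 (1.45 and 2.76), the smooth-muscle actin ACTG2 (1.13 and 1.61) and the secretoglobin SCGB3A1 (1.05 and 2.95) were also called at both doses. Of these, LAMB2 lost its call at 16 nM without 16 nM library 1 (adjusted p = 0.075), ACTG2 without DMSO library 2 or 16 nM library 2, and SCGB3A1 without any 1 of the 4 libraries. With a fit to 8 libraries alone the 16 nM calls of TNS2, LAMB2, EVA1B, TPM2, ACTG2, SCGB3A1 and UGT3A2 ended.

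Most sterol and fatty acid genes were lower at 80 nM. Of 32 tested members of 34 none was called at 16 nM, where 3 passed downward at any size (0.921% of tested genes did so) and the median was -0.26. The 3 became 0 without DMSO library 2 or without 16 nM library 1. At the reference dose of 3.2 nM the list median was already -0.28, with none passing, and from 3.2 to 16 nM it was 0.02. At 80 nM 6 were called lower and 30 passed downward at any size (6.6% of tested genes did so), with none higher, and the median was -0.71 against -0.005 over all tested genes. Against 3.2 nM DAC in place of DMSO, 80 nM gave 1 called lower, 15 lower at any size and a median of -0.31. The mean level fell from DMSO to 16 nM to 80 nM in 30 of the 32 (93.8%), an order that 21.2% of all tested genes had. This order was not particular to the list. It was found in 86.7% of ribosomal protein genes, 72.2% of replication-linked histones, 56.2% of S-phase genes and 46.7% of housekeeping controls.

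SCD (chromosome 10, 100347124 to 100364834, +), which puts the double bond into saturated fatty acids, stood at 91.9 and 97.1 FPKM in DMSO, 75.2 and 80.6 at 3.2 nM, 70.6 and 78.0 at 16 nM, and 36.1 and 39.5 at 80 nM. The 3.2 and 16 nM libraries overlapped and lay below DMSO, and those of 80 nM were lower still. The change was -0.35 ± 0.09 at 16 nM (adjusted p = 0.028) and -1.31 ± 0.09 at 80 nM (adjusted p = 4.13e-12). DHCR7, the last enzyme of cholesterol synthesis, was at 16.7 and 17.8 in DMSO, 10.5 and 11.7 at 3.2 nM, 9.08 and 11.1 at 16 nM, and 6.24 and 7.27 at 80 nM (-0.75 and -1.29). For DHCR7 much of the distance to DMSO was thus present at 3.2 nM, and against 3.2 nM DAC the change at 80 nM was -0.68.

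Fatty acid synthase, FASN, was at 160 and 188 FPKM in DMSO, 115 and 136 at 16 nM, and 62.9 and 88.9 at 80 nM (-0.47 and -1.21), and its 80 nM change was -0.96 without 80 nM library 1. The desaturases FADS2 (-0.23 and -1.1) and FADS1 (-0.23 and -1.0) were likewise called at 80 nM, FADS1 only just, since its change was -0.93 without DMSO library 2 and -0.94 without 80 nM library 2. INSIG1, which holds the sterol sensor in the endoplasmic reticulum, was at 101 and 135 in DMSO, 79.9 and 91.6 at 16 nM, and 55.2 and 56.6 at 80 nM (-0.44 and -1.05, and -0.84 without DMSO library 2). PMVK (-0.22) and EBP (-0.29) did not pass at 80 nM.

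Among other genes called lower, UGT3A2 (chromosome 5, 36035017 to 36071358, −), a UDP-glycosyltransferase, was the single protein-coding gene at 16 nM. UGT3A2 stood at 9.13 and 10.8 FPKM in DMSO, 8.05 and 6.47 at 3.2 nM, 4.45 and 4.86 at 16 nM, and 2.50 and 2.12 at 80 nM. The 4 groups were in order without overlap. The change was -1.02 ± 0.17 at 16 nM (adjusted p = 0.00055), a call that ended without DMSO library 2 (-0.90) or 16 nM library 1 (-0.96), and -1.90 ± 0.17 at 80 nM (adjusted p = 1.58e-09). The prolactin receptor PRLR was at 3.21 and 3.51 in DMSO, 1.85 and 1.58 at 16 nM, and 0.944 and 1.09 at 80 nM (-0.80 and -1.34). PSAT1, an enzyme of serine synthesis, was at 50.4 and 36.8 in DMSO, 27.3 and 32.1 at 16 nM, and 19.7 and 20.8 at 80 nM, and its change of -1.07 became -0.85 without DMSO library 1. The remaining lower calls at 16 nM were LINC01374, RPL3P13, 5 short RNA genes and 4 identifiers without a symbol, and LINC01374 and RPL3P13 lost their calls without either 16 nM library.

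Against 16 nM directly, 80 nM DAC gave 188 genes called higher and 18 lower (0.809% and 0.0775% of the genes tested). Refitted on genes with an annotated transcript of at least 200 bases, these were 172 and 7. The 18 lower calls became 33 without 16 nM library 1 and 31 without library 2. By this comparison 14 of the 40 interferon genes, 9 of the 29 germline genes and 3 of the 30 monocyte genes were called higher, with medians of 0.70, 0.67 and 0.48. At any size 25, 17 and 16 were higher (3.56% of tested genes were). None of the 32 sterol and fatty acid genes was called (median -0.38), and 15 were lower at any size, as were 2.95% of tested genes. Among the genes described above, HIST1H1A was higher by 4.20, PNMA5 by 4.18, ZNF595 by 3.23, IFI27 by 3.17 and MAGEA4 by 3.09. S100A9 was higher at 80 nM by 0.72 (95% interval 0.45 to 1.00, adjusted p = 0.000653), SCD lower by 0.97 on the log2 scale, and UGT3A2 lower by 0.88, all under the call size.

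The drug's target and most of its handling genes stayed within the call size. DNMT1 was at 96.2 and 89.8 FPKM in DMSO, 77.5 and 83.5 at 16 nM, and 77.6 and 83.2 at 80 nM, a change of -0.21 ± 0.07 at both doses that did not pass (adjusted p = 0.159 and 0.0558). UHRF1, which guides DNMT1 to newly replicated DNA, was at 72.6 and 65.2 in DMSO, 56.2 and 63.6 at 16 nM, and 51.4 and 57.0 at 80 nM (-0.34, adjusted p = 0.00749). None of 21 tested genes of the methylation machinery was called, and 6 were lower at any size at 80 nM (median -0.20), as were 6.6% of tested genes. DCK, which activates DAC, was at 43.8 and 41.0 in DMSO, 46.0 and 44.4 at 16 nM, and 44.7 and 41.7 at 80 nM. Of 22 tested uptake and nucleotide genes 1 was called, the nucleoside transporter SLC28A3, at 0.0223 and 0.0112 in DMSO and 0.968 and 0.679 at 80 nM (1.35). Of all tested genes 1.74% were called higher at 80 nM.

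No gene of the S phase, mitosis, homologous recombination or oxidative phosphorylation lists was called at either dose. At 80 nM, where 6.6% of tested genes were lower at any size, 12 of 32 S-phase genes were (median -0.22), as were 3 of 30 mitosis genes (-0.06), 5 of 24 recombination genes (-0.12) and none of 26 oxidative phosphorylation genes (-0.07). Ribosomal protein genes had medians of -0.17 at 3.2 nM, -0.07 at 16 nM and -0.35 at 80 nM, where none was called and 21 of 30 were lower at any size. Their mean fell from DMSO to 16 nM to 80 nM in 26 of 30 (86.7%), as did that of 13 of 18 replication-linked histones (72.2%). Of those histones 9 were lower and 1 higher at any size at 80 nM (median -0.32), and of 15 housekeeping control genes 6 were lower (median -0.22). Of 30 tested p53 targets 2 were called at 80 nM, GDF15 (1.14, and 0.75 without 80 nM library 1) and TP53I3 (1.11), and 8 were higher and 2 lower at any size, against 8.45% and 6.6% of tested genes (1.74% were called higher). Of 24 tested apoptosis genes 2 were called, the pro-death BMF, at 3.46 and 3.40 in DMSO and 7.65 and 7.81 at 80 nM (1.07), and the survival gene BCL2A1 (1.04, and 0.95 without 80 nM library 1). Among 24 tested NF-kB genes the chemokines CCL2 (1.19) and CXCL1 (1.02) were called, and both calls ended without 80 nM library 2 (0.83 and 0.99), that of CXCL1 also without DMSO library 1 (0.95).

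GSK032 at matched dose and day was compared next, at 2 doses. Library 1 of 16 nM GSK032 stood apart. It was above library 2 in 267 of the 404 genes called higher at 80 nM DAC (66.1%), against 47.9% of all tested genes, while the other groups had 46.8 to 58.2%. In it IFI27 was at 6.77 FPKM and MAGEA4 at 3.76, against 1.53 and 1.1 in library 2. The cause was not tested. Against DMSO, 16 nM GSK032 gave 1 gene called higher and none lower (0.00431% and 0.0%), and the same numbers passed at any size. At 80 nM it gave 21 called higher and 4 lower (0.0904% and 0.0172%).

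DAC was higher than GSK032 by the call rule in 23 genes and lower in 23 at 16 nM (0.099% each). Refitted on genes with a transcript of 200 bases, these were 20 and 8. Without library 1 of 16 nM GSK032 the 46 calls were 38, without library 2 they were 130, and without 16 nM DAC library 1 they were 71. With libraries scaled to equal sums they were 15. At 80 nM DAC was higher in 223 genes and lower in 77 (0.96% and 0.332%). The lower count was 160 without GSK032 library 1, 34 without GSK032 library 2 and 38 without DAC library 1. With equal sums, which shifted the median of all genes by -0.17 at 80 nM, this split was 189 and 127. Interferon genes were called higher with DAC in 4 of 40 at 16 nM (median 0.48) and 17 of 40 at 80 nM (0.80). At any size 16 were higher at 16 nM (2.42% of tested genes were) and 29 at 80 nM (5.92%). The 16 depended on the processing and fell as low as 2. The interferon median stayed between 0.39 and 0.51 at 16 nM and between 0.65 and 0.90 at 80 nM. Germline genes were called higher in 1 and 8 of 29, and monocyte genes in 3 and 9 of 30. None of the 32 sterol and fatty acid genes was called, while at any size 2 were lower at 16 nM (1.17% of tested genes) and 16 at 80 nM (4.02%, list median -0.35).

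IFI27 was at 5.84 and 5.02 FPKM with 80 nM GSK032, against 108 and 108 with DAC, a difference of 4.20 (95% interval 3.47 to 4.93, adjusted p = 1.86e-09). At each dose the DAC libraries lay above both GSK032 libraries. At 16 nM the difference was 1.66 (adjusted p = 0.00714), or 2.58 without GSK032 library 1 and 0.74 without library 2 (adjusted p = 2.87e-05 and 0.19), and its call also ended without DAC library 1 (adjusted p = 0.0719). S100A9 was at 103 and 109 with 16 nM GSK032 and 107 and 103 with 80 nM, within or near the DMSO values of 108 and 96.6, and DAC exceeded it by 1.24 and 1.98. MAGEA4 was at 9.56 and 8.77 with 80 nM GSK032, above DMSO and below 80 nM DAC (difference 2.4, adjusted p = 1.83e-08). At 16 nM DAC exceeded GSK032 in MAGEA4 by 1.2, by 1.9 without GSK032 library 1 and by 0.49 without library 2. PNMA5 was at 1.73 and 0.124 with 16 nM GSK032 and at 0.620 and 0.760 with 80 nM. DAC differed from GSK032 by -0.81 in PNMA5 at 16 nM (adjusted p = 0.126), by 0.11 without GSK032 library 1 and by -1.73 without library 2 (adjusted p = 4.17e-06, called lower with DAC), and by 3.36 at 80 nM. SCD was at 76.9 and 88.3 with 16 nM GSK032, where the difference of -0.15 did not pass (95% interval -0.33 to 0.03), and at 71.5 and 74.0 with 80 nM, where DAC was lower by 0.94 on the log2 scale. STAB1 overlapped DMSO with GSK032 at both doses, with 0.281 and 0.114 at 16 nM and 0.124 and 0.208 at 80 nM, and DAC exceeded it at 80 nM by 1.90.

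**Figure D5:**
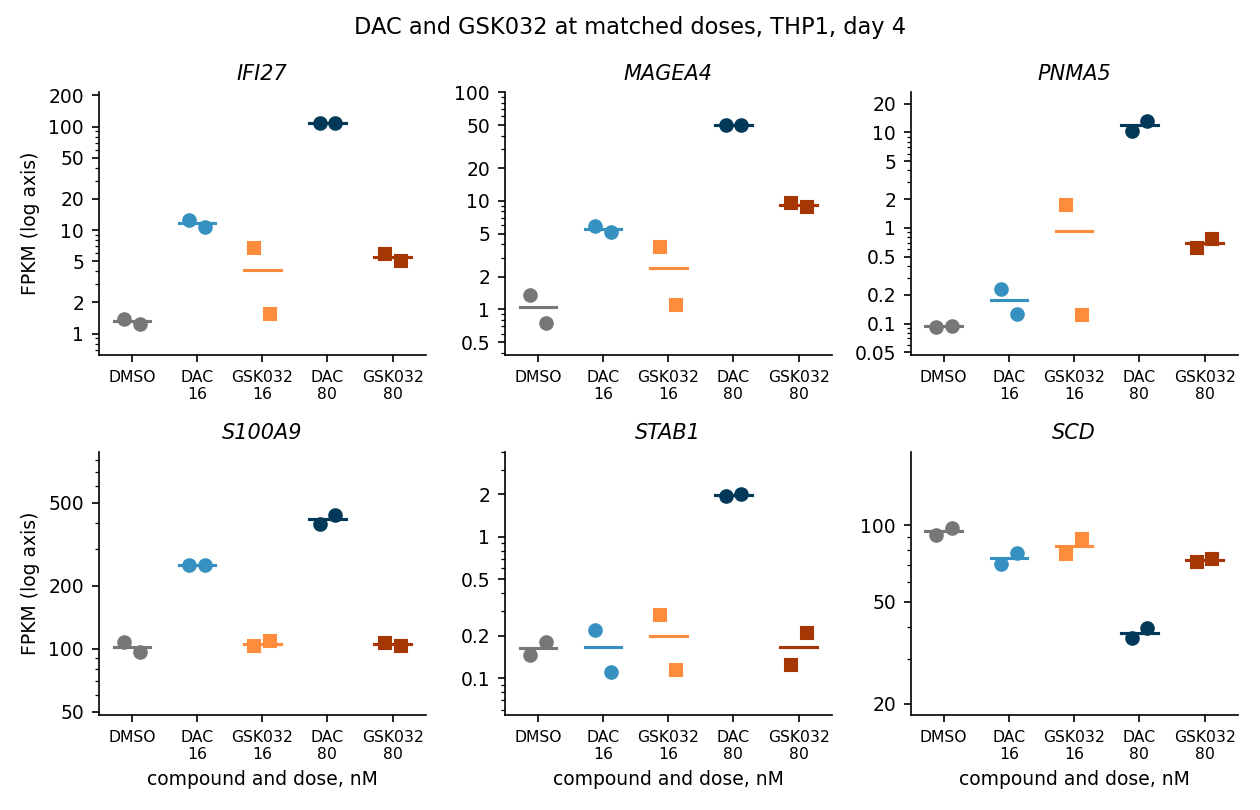
FPKM (y axis, log scale) of 6 genes in DMSO and in 16 and 80 nM of DAC and GSK032 (x axis), day 4, with each point a library (n = 2 per group). At 80 nM, IFI27, MAGEA4, PNMA5, S100A9 and STAB1 were above GSK032 with DAC and SCD was below it, and library 1 of 16 nM GSK032 lay above library 2 for IFI27, MAGEA4 and PNMA5.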

How the data were processed

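RNA-seq of 8 THP1 libraries of DMSO and DAC and 4 of GSK032 at day 4 was used. The authors deposited FPKM values for each cell line. Per the submitters' processing notes the build was hg38 and the tools Salmon 0.12.0 and DESeq2; how these gave FPKM is not given in the sources used here, nor whether strand was used. Here log2(FPKM + 0.5) was computed from the deposited FPKM and fitted with limma 3.58.1 (R 4.3.3), with a mean for each of 26 groups over all 52 THP1 libraries (26 residual degrees of freedom), variances moderated with a trend, and Benjamini-Hochberg adjustment over 23226 genes. The 36713 genes failing the filter were not tested. On simulated data for 80 nM against DMSO (23226 genes, 200 changed), 87% of changes of 1.5 and 91% of changes of 3 on the log2 scale were recovered, with 5 false calls. The changed genes all had a mean log2(FPKM + 0.5) of at least 1 in DMSO, and the simulated noise was independent between libraries. Recovery of lower genes was thus not measured, and 59.4% of the 404 genes called higher at 80 nM had a mean DMSO FPKM under 1. Names and gene coordinates are from GENCODE 29 (94.3% of identifiers), promoters from RefSeq.

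Members and the 32 lists were chosen with earlier results of these data known. The rule for naming genes asked for a symbol and, in whichever group was higher, a mean FPKM of 1 or more. It took the 15 highest and 10 lowest calls per dose, up to 5 called members per list or else 2 uncalled ones, 8 per direction between doses, 6 per direction between compounds, up to 5 called at 3.2 nM or at 16 nM alone, and DNMT1, UHRF1 and genes of DAC handling. IFI6, MX1, ISG15, OAS1, ISG20, PLSCR1, IFITM2, STAT2, TAP1, B2M, CIITA, CD74, HORMAD1, CT45A1, PRAME, GTSF1, DAZL, CD14, LYZ, CSF1R, CD68, CD163, ELANE, SCGB3A1, FADS1, PMVK, EBP, PRLR and, with means under 1, ERVH48-1, DIRAS3 and SLC28A3 were named after their values were seen. Pseudocount, filter, scaling, transcript length, replicate block, single libraries and the control were varied. Some genes are not reported here.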

Additional observations from a re-analysis of the deposited data

How the results depend on the processing

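Of 234 reported values of named genes, 95 were called. Under alternatives there were 3276 values, of which 3130 stayed called or uncalled as reported, 122 lost the call, 22 gained it and 2 reversed. Only the called values could lose a call or count as reversed, and the direction of uncalled values was not checked. The reversed values are those of CU633906.1 with 3.2 nM DAC as the control, -0.19 at 16 nM and -0.47 at 80 nM, against 1.59 and 1.3; the cause was not tested. With a pseudocount of 0.1 the counts of genes called were 74 at 16 nM, 833 at 80 nM, 401 for 80 against 16 nM, 76 for DAC against GSK032 at 16 nM and 530 at 80 nM, against 32, 482, 206, 46 and 300. With a pseudocount of 1 they were 21, 291, 135 and, for the compounds at 80 nM, 190. Without a minimum size they were 526, 3497 and 1511. With equal sums 19 were called at 16 nM and 15 between compounds at 16 nM. With transcripts of at least 200 bases only, an alternative chosen after seeing the data, 1 was called at 3.2 nM and 28 between compounds at 16 nM. Leaving out single libraries gave 29 to 84 at 16 nM, 453 to 572 at 80 nM, 206 to 232 for 80 against 16 nM, and, chosen after seeing the data, 10 to 22 at 3.2 nM, 37 to 130 between compounds at 16 nM and 228 to 416 at 80 nM. With 3.2 nM DAC as the control 34 were called at 16 nM and 513 at 80 nM. The calls of S100A9, UGT3A2, LAMB2, ACTG2, TPM2, SCGB3A1, LINC01374, RPL3P13 and TMEM176B at 16 nM ended with that control. So did those of DHCR7, FASN, FADS2, FADS1, INSIG1, PSAT1, CXCL1, GDF15, LINC01374 and TMEM176B at 80 nM. With a pseudocount of 1 the calls of ACTG2, SCGB3A1, UGT3A2, LINC01374 and RPL3P13 at 16 nM ended. So did those of IFIH1, ERVH48-1, DIRAS3, SLC28A3, CCL2, CXCL1, CD14, GDF15, BMF, BCL2A1, FADS1, KRT18, LINC01374 and CU633906.1 at 80 nM. Equal sums ended the calls of IFI6, LAMB2, ACTG2, SCGB3A1, LINC01374, RPL3P13 and CU633906.1 at 16 nM and of IFIH1 and CU633906.1 at 80 nM. What the replicate number stands for is not stated. Deviations of same-numbered DMSO and DAC libraries correlated weakly, at 0.044 to 0.093. On the second principal component (16.1% of the variance), however, libraries numbered 1 lay at 8.3 to 40.9 and those numbered 2 at -37.3 to -10.3. The cause was not tested. With a replicate block 40, 507 and 228 were called at 16 nM, 80 nM and between them, against 32, 482 and 206. Fits use 2 libraries per group and FPKM without counts, so no counting error could be given and low levels are uncertain.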

Other observations

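At the next dose, 400 nM DAC at day 4, IFI27 was at 484 and 458 FPKM, higher than at 80 nM by 2.12 on the log2 scale. MAGEA4 was at 59.5 and 58.8, and its step from 80 nM of 0.23 did not pass (95% interval -0.24 to 0.70, adjusted p = 0.561). The comparison of 400 with 80 nM was added after the data were seen.

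In the other lines, levels at the same doses are given without a test. IFI27 was at 1.58 and 0.927 FPKM in DMSO and 0.745 and 1.09 at 80 nM DAC in MV411, and at 0.277 and 0.235 and then 0.398 and 0.755 in NOMO1. Between the same groups IFI6 went from 10.4 and 7.19 to 9.15 and 8.75 in MV411, and from 4.47 and 4.92 to 22.3 and 14.5 in NOMO1. IFIT1 went from 2.38 and 1.44 to 0.104 and 0.146 in MV411 and from 0.487 and 0.47 to 1.86 and 1.63 in NOMO1. MX1 in NOMO1 went from 2.13 and 2.84 to 1.68 and 1.19. MAGEA4 was at 56.1 and 49.7 with 80 nM in MV411, and in NOMO1 went from 0.385 and 0.138 in DMSO to 20.9 and 18.5. PNMA5 was at 3.43 and 3.15 at 16 nM and 29.5 and 34.7 at 80 nM in NOMO1. LGALS3BP in NOMO1 was at 0.422 and 0.348 in DMSO, 3.90 and 4.33 at 16 nM, and 14.0 and 22.5 at 80 nM. SCD at 80 nM was at 30.4 and 21.9 in MV411, against 133 and 151 in DMSO, and at 42.6 and 39.6 in NOMO1, against 138 and 138. S100A9 was at 7.00 and 6.56 in DMSO and 4.87 and 7.86 at 80 nM in MV411, so its pairs overlapped there.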
